A study of Mus musculus with 21 samples.

Results

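Intercalated disc and Xin-repeat genes were followed in mouse hearts on expression arrays, on every probe set that the platform annotation assigns to only that gene. Of the 10 genes chosen by name (Xirp1, Xirp2, Nrap, Enah, Nes, Pkp2, Dsp, Jup, Cdh2 and Ctnna3), 9 had a probe set, out of 18193 gene symbols on the array. No probe set matched Xirp2, the other Xin-repeat gene, which was not analysed here. The 9 genes had 23 probe sets, of which 20 passed the level filter and were tested, and 1 probe set each of Enah, Nes and Pkp2 lay below it.

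The 21 arrays fall into 4 groups by genotype and operation: G4D mice after TAC (n = 6), wild-type mice after TAC (n = 6), sham-operated G4D mice (n = 5) and sham-operated wild-type mice (n = 4). TAC, transverse aortic constriction, ties a ligature round the aortic arch and puts the left ventricle under pressure, and the sham operation leaves the aorta untouched. G4D mice are the gene-targeted mice with reduced Gata4 of the study's design, known as heterozygotes for a Gata4 allele that lacks an exon; Gata4 encodes a DNA-binding regulator of heart muscle genes. Strain, age, sex and time after the operation were not given in the sources used here, and the source is labelled as cardiac myocytes without saying whether cells were isolated or tissue was taken. The study asked how reduced Gata4 bears on the heart at baseline and under pressure overload.

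The intercalated disc joins heart muscle cells end to end. In it, desmosomes hold the intermediate filaments of neighbouring cells together, adherens junctions hold their actin filaments, and in the mammalian heart these kinds of junction mix in the area composita. Cdh2 (N-cadherin) spans the gap of the adherens junction, and Ctnna3 (alpha-T-catenin) links it to actin and binds the desmosomal plaque protein Pkp2 (plakophilin 2). Jup (plakoglobin) belongs to both kinds of junction, and Dsp (desmoplakin) ties the desmosome to desmin filaments. Xirp1 and Xirp2 carry Xin repeats that bind and stabilise actin bundles at the disc, and Xirp1 binds Enah (Mena), an Ena/VASP protein that promotes actin filament growth. Nrap joins the last actin filaments of the myofibril to the junction, and Nes (nestin) is an intermediate filament protein of progenitor, endothelial, nerve and injured tissue cells.

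The 3 windows of genome sequence printed here are shown because Enah, Nrap and Nes each had a probe set that rose after TAC in both genotypes. Each is the 250 bases before the RefSeq transcription start on the gene's strand (GRCm38.p6), printed 5′ to 3′, and the capitals mark the GC box GGGCGG read on either strand. Enah lies on the minus strand at chr1:182019981-182020230, Nrap on the minus strand at chr19:56390039-56390288, and Nes on the plus strand at chr3:87970843-87971092.
Enah: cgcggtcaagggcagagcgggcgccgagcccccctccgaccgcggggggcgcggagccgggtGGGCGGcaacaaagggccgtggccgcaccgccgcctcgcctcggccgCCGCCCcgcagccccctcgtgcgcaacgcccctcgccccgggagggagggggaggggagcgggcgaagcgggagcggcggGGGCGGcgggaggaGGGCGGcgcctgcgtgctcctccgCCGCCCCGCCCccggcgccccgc
Nrap: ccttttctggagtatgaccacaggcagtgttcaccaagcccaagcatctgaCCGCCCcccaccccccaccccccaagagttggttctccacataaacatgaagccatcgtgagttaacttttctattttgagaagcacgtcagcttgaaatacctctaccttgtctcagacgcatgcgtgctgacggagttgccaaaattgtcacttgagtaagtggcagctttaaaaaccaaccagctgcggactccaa
Nes: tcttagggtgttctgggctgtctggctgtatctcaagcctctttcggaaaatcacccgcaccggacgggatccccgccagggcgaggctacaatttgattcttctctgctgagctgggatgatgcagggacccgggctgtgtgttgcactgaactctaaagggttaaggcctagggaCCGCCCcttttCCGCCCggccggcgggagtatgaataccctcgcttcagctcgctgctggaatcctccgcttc
The Enah window held 84.8% G and C, against a median of 52.4% over 32851 RefSeq windows of the same length; the Nes window held 58.8% and the Nrap window 50.0%. GGGCGG matched 6 times in the Enah window, with the last pair of matches sharing a base, 2 times in the Nes window and 1 time in the Nrap window, and 32.7% of all windows held it. GATAA (22.6% of all windows), CATTCC (12.6%), TATAAA (12.4%), the MEF2 motif (2.92%) and the CArG box (1.47%) were searched on both strands and matched in none of these 3 windows. A match is a description of the letters and not a binding site.

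All values below are log2 levels of a probe set after quantile normalization, or differences between them, and levels of different probe sets are not comparable. A value after ± is the standard error of the difference unless called SD, and a probe set was called where limma's Benjamini-Hochberg adjusted p over all 27022 tested probe sets of the comparison was under 0.05. Array medians before normalization ran from 4.31 to 5.33, and the correlation of an array with its group's other arrays was 0.962 or more. All 10 cardiomyocyte markers passed the level filter, and their summed log2 level was 15.7 to 15.8 on all arrays. Gata4 itself did not pass the test on either probe set: the brighter differed between G4D and wild type by 0.17 ± 0.11 after TAC (adjusted p = 0.640) and by -0.25 ± 0.12 in sham (adjusted p = 0.719). Where the probe sets lie relative to the targeted part was not known, so they do not check the labels. Nothing in the labels says that arrays of a group are separate animals. The p-values set each difference against the spread between arrays, which may not be the spread between animals. The number of arrays limits the precision.

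The 5 comparisons share groups. TAC over sham called 17.6% of all tested probe sets in G4D hearts (10.4% as higher) and 4.77% in wild-type hearts (3.65% as higher). G4D over wild type called 2.13% after TAC (1.42% as higher) and 0.0407% in sham, and the interaction, how far the effect of TAC differed between G4D and wild type, called 0.0296%. The split of calls moved with the scaling. TAC over sham in G4D gave 2799 higher and 1953 lower, but 3187 and 85 on the values as deposited and 3046 and 449 with arrays centred on their medians; in wild type it gave 985 and 304, against 111 and 4, and 572 and 35. After TAC, G4D over wild type gave 384 higher and 192 lower, against 80 and 11, and 219 and 46; in sham it gave 6 and 5, against 0 and 6, and 0 and 2. On the deposited scale the median of all tested probe sets lay at 0.27 for TAC in G4D, -0.10 for TAC in wild type, 0.13 for G4D after TAC, -0.25 for G4D in sham and 0.39 for the interaction, and with median centring at 0.07, -0.03, 0.01, -0.10 and 0.12.

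Among the 20 tested probe sets of the disc genes, TAC over sham in G4D called 9 as higher and 0 as lower, from 5 genes: Enah (5 probe sets), Xirp1, Nrap, Nes and Pkp2. TAC over sham in wild type called 4 as higher and 0 as lower, from Enah (2 probe sets), Nrap and Nes. After TAC, G4D over wild type called 5 as higher and 0 as lower, 4 of Enah and that of Xirp1. G4D over wild type in sham called 0 with limma. Of the 20, 4 had an unadjusted p under 0.05 there, beside 1888 of all 27022, and 2 did not overlap between the groups. The interaction called 1, that of Xirp1. With each gene read by its brightest probe set, the called genes were 4, 2, 2, 0 and 1 of 9 in the same order. The median change of the 20 probe sets was 0.08 for TAC in G4D and -0.09 for TAC in wild type, beside -0.04 and -0.02 over all tested probe sets. Enah weighs on these medians with 5 of the 20. With 1 probe set per gene the medians were -0.04 in G4D and -0.12 in wild type. Groups did not overlap for 8 of the 20 in TAC over sham in G4D (8.44% of all tested probe sets), 5 in wild type (8.56%), 5 in G4D over wild type after TAC (1.96%) and 2 in sham (2.45%). Several of these probe sets read the same gene, Enah. With each gene read by its brightest probe set the counts were 3, 2, 3 and 1 of 9.

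**Figure D1:**
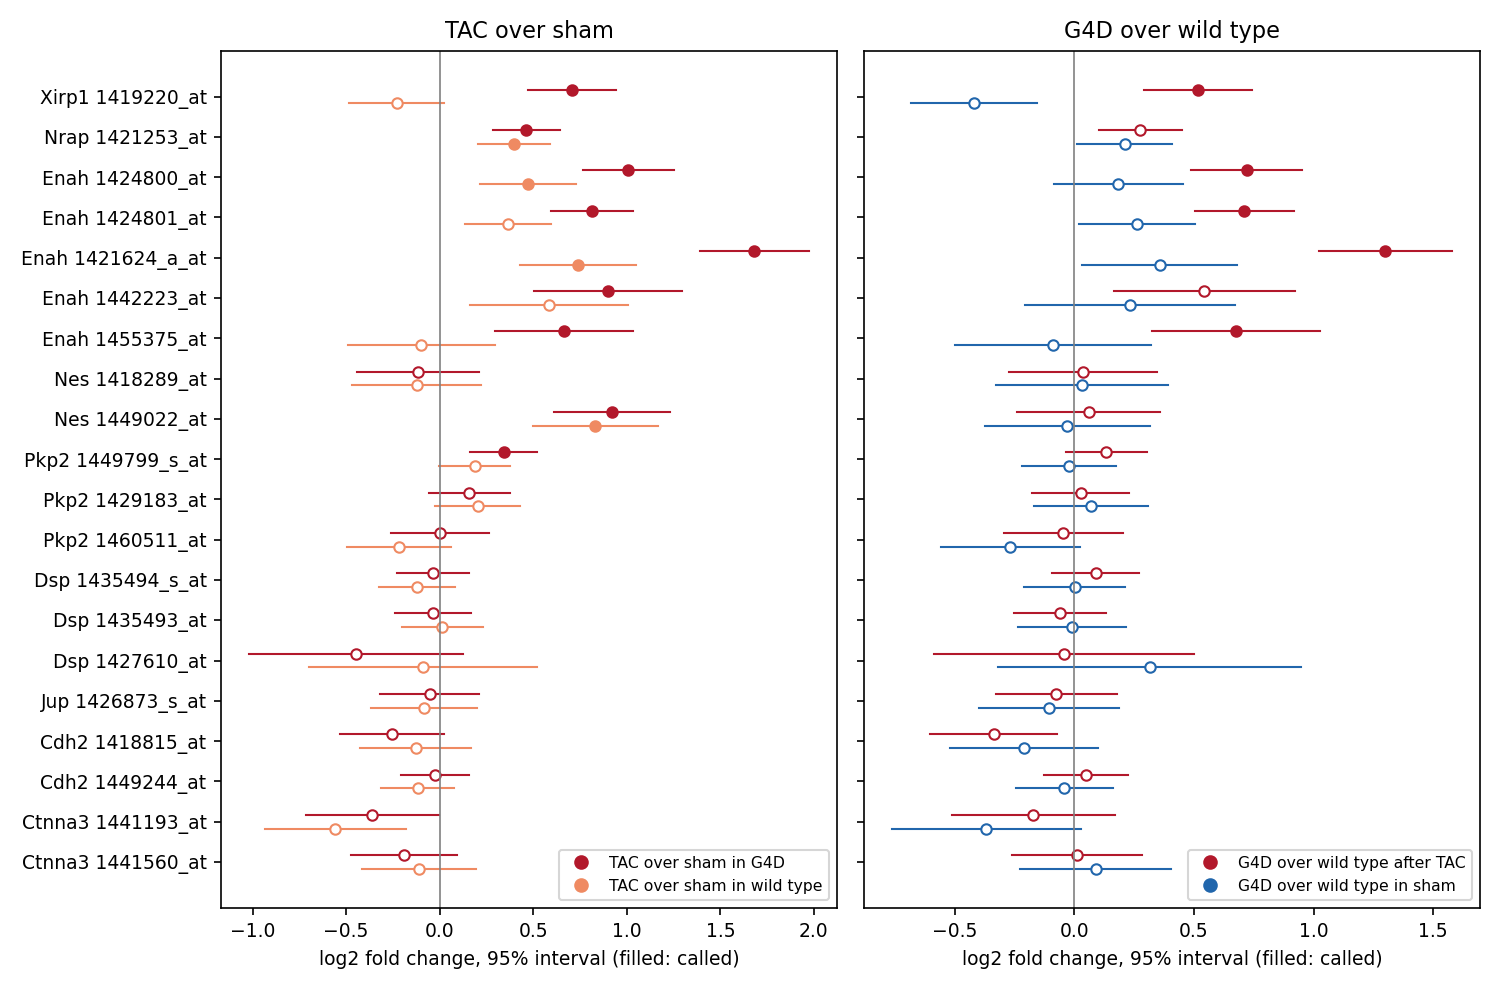
Log2 fold change of each tested probe set of the disc genes with its 95% interval, TAC over sham on the left and G4D over wild type on the right, with filled points called by limma. The 5 Enah probe sets and those of Xirp1, Nrap, Nes 1449022_at and Pkp2 1449799_s_at are filled for TAC over sham in G4D, and the Dsp, Jup, Cdh2 and Ctnna3 points are open throughout.

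Enah, the actin elongation factor of the group, had the most probe sets, and the largest changes with TAC in G4D and between the genotypes after TAC. On its brightest probe set, 1424800_at, the level ran from 10.28 through a median of 10.55 to 11.08 in G4D TAC and from 9.76 through 9.92 to 10.03 in wild-type TAC. It was 9.71, 9.50, 9.46, 9.70 and 9.71 in G4D sham and 9.45, 9.30, 9.50 and 9.48 in wild-type sham. The groups stood in the order G4D TAC, wild-type TAC, G4D sham, wild-type sham, and only the sham groups overlapped. TAC over sham was 1.01 ± 0.12 in G4D, a 2.01-fold rise (adjusted p = 5.16e-06), and 0.47 ± 0.12 in wild type, a 1.39-fold rise (adjusted p = 0.0290). G4D over wild type was 0.72 ± 0.11 after TAC, 1.65-fold (adjusted p = 0.00104), and 0.18 ± 0.13 in sham (adjusted p = 0.847). The TAC effect was 0.54 ± 0.17 larger in G4D than in wild type, which did not pass the test of the interaction (adjusted p = 0.401). The wild-type call was lost under 5 of the 7 alternatives that keep all arrays, with adjusted p from 0.0600 to 0.999, and the call between genotypes after TAC was lost on the deposited values (0.87, adjusted p = 0.103).

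The same order of group means held on 1421624_a_at, 1424801_at, 1442223_at and the untested 1431162_a_at, and not on 1455375_at. On 1421624_a_at, which had the largest change of the 20 in both genotypes' TAC comparisons but for Nes 1449022_at in wild type, the level ran from 7.99 through 8.26 to 8.84 in G4D TAC and from 6.75 through 6.94 to 7.42 in wild-type TAC. It was 6.74, 6.47, 6.59, 6.67 and 6.63 in G4D sham and 6.01, 6.25, 6.52 and 6.27 in wild-type sham. The TAC change here was 1.68 ± 0.14 in G4D, 3.21-fold (adjusted p = 1.85e-07), against 0.74 ± 0.15 in wild type, 1.67-fold (adjusted p = 0.00570). No G4D TAC array came within the range of any other group. After TAC it was higher in G4D by 1.30 ± 0.13, 2.46-fold (adjusted p = 2.03e-05), and the interaction was 0.94 ± 0.20 (adjusted p = 0.108). The wild-type call was lost on the deposited values (adjusted p = 0.457) and with the actin 3' minus 5' difference, an RNA quality measure described further on, as a covariate (adjusted p = 0.0711).

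Of the remaining Enah probe sets, 1424801_at changed by 0.81 ± 0.10 with TAC in G4D (adjusted p = 1.69e-05) and by 0.36 ± 0.11 in wild type (adjusted p = 0.0648). It was higher in G4D than in wild type by 0.71 ± 0.10 after TAC (adjusted p = 0.000467; 0.0556 on the deposited values), and its sham groups did not overlap either, at 0.26 ± 0.12 (adjusted p = 0.688). The dimmer 1442223_at changed by 0.90 ± 0.19 with TAC in G4D (adjusted p = 0.00225) and by 0.59 ± 0.20 in wild type (adjusted p = 0.113), and its groups overlapped after TAC. The dimmest tested one, 1455375_at, rose by 0.67 ± 0.18 with TAC in G4D (adjusted p = 0.0120), stood at -0.10 ± 0.19 in wild type (adjusted p = 0.866), and was higher in G4D after TAC by 0.67 ± 0.17 (adjusted p = 0.0377), a call lost on the deposited values, with median centring, with no level filter and with the actin covariate (adjusted p = 0.0582 to 0.133). In all, 5 of 5 tested Enah probe sets were called as higher with TAC in G4D and 2 of 5 in wild type. In wild type only 1455375_at had a negative change, and no Enah probe set passed the test of the interaction. All of them read the same gene. With other settings, 1455375_at lost its G4D call with the actin covariate (0.56, adjusted p = 0.134), and 1424801_at passed in wild type with the filter at the 60th percentile (adjusted p = 0.0411). The last, 1431162_a_at, averaged 4.47 ± 0.63 (SD, n = 6) in G4D TAC, 3.54 ± 0.46 (SD, n = 6) in wild-type TAC, 3.21 ± 1.06 (SD, n = 5) in G4D sham and 2.67 ± 1.05 (SD, n = 4) in wild-type sham, and was below the level filter. Which part of the transcript each probe set reads was not analysed here.

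**Figure D2:**
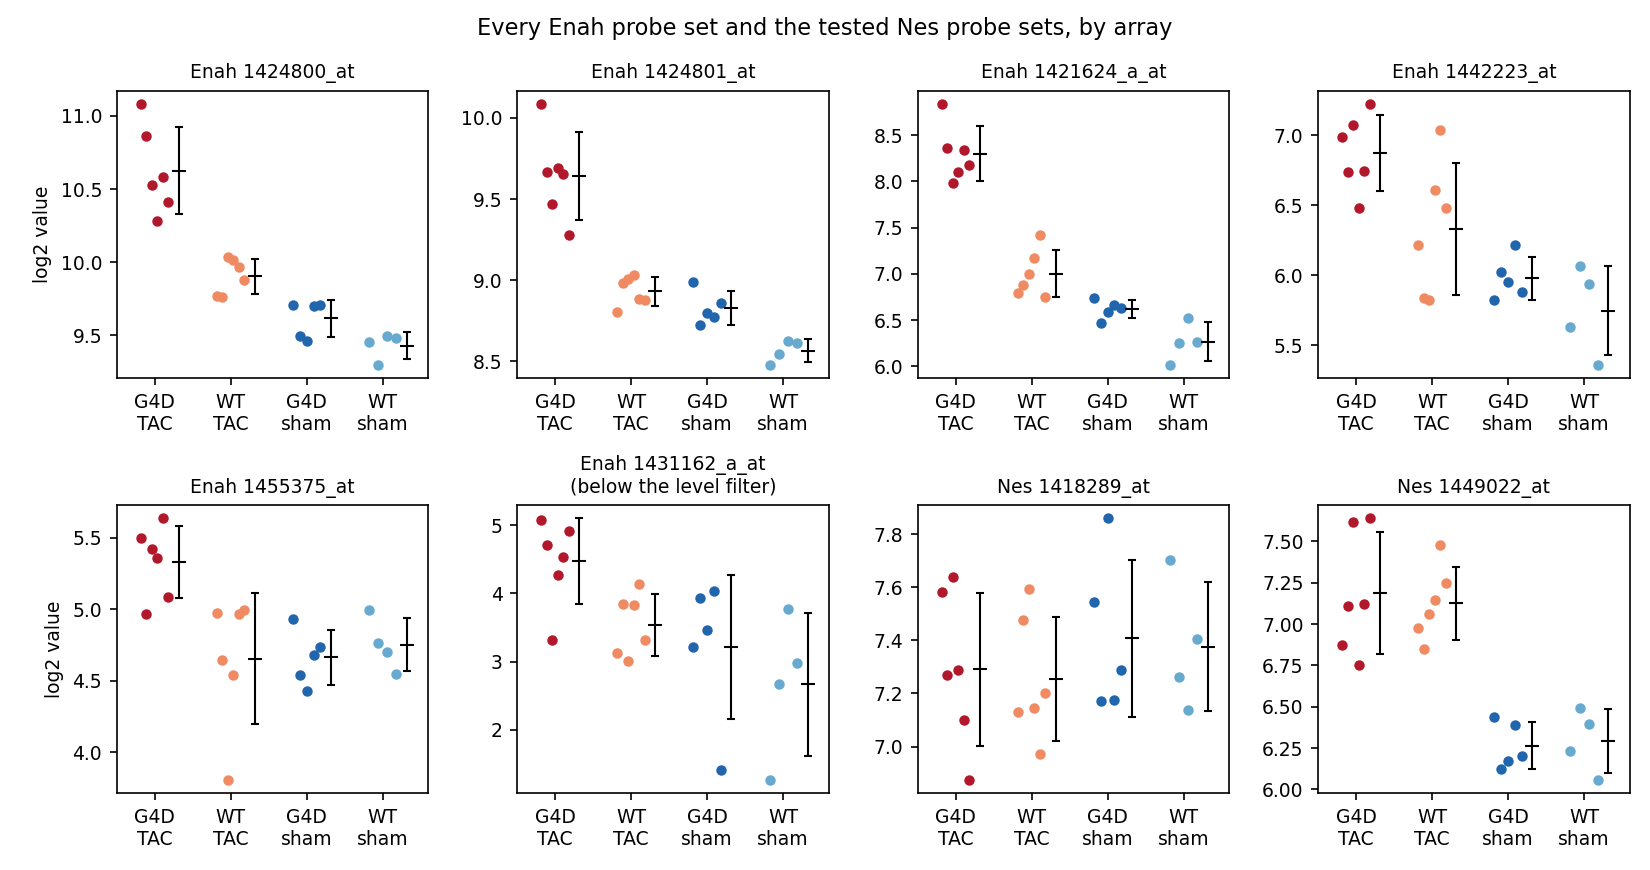
Log2 level by array of the 6 Enah probe sets and the tested pair of Nes probe sets in the 4 groups, with mean and SD beside the points. The G4D TAC arrays stand above all others on Enah 1424800_at, 1424801_at and 1421624_a_at, and the Nes probe sets differ in that only 1449022_at separates TAC from sham.

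Xirp1, the Xin-repeat partner of Enah, gave the only called interaction among the disc genes. Its level ran from 9.14 through a median of 9.34 to 9.77 in G4D TAC and from 8.72 through 8.80 to 9.13 in wild-type TAC. It was 8.57, 8.83, 8.70, 8.76 and 8.59 in G4D sham and 9.23, 9.22, 9.06 and 8.93 in wild-type sham. G4D arrays were thus all above wild-type arrays after TAC and all below them in sham. TAC over sham was 0.71 ± 0.11 in G4D, 1.63-fold (adjusted p = 0.000184), and -0.23 ± 0.12 in wild type with a 95% interval from -0.48 to 0.02 (adjusted p = 0.370). After TAC, G4D over wild type was 0.52 ± 0.11, 1.43-fold (adjusted p = 0.0126), and in sham it was -0.42 ± 0.13, which did not pass the test (adjusted p = 0.394). The interaction was 0.94 ± 0.17 (adjusted p = 0.0499), just inside the threshold. The interaction call was lost in 6 of 7 alternatives that keep all arrays, with adjusted p from 0.0501 to 0.244 and values from 0.94 to 1.46, and was kept in 3 of 21 fits with an array left out (adjusted p = 0.0314 to 0.173 over the 21). The call after TAC was lost with median centring (0.57, adjusted p = 0.0934) and on the deposited values (0.69, adjusted p = 0.287).

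Nrap, which anchors myofibrils at the disc, rose with TAC in both genotypes. Its level ran from 11.11 through 11.19 to 11.47 in G4D TAC and from 10.84 through 10.94 to 11.05 in wild-type TAC. It was 10.81, 10.55, 10.87, 10.94 and 10.64 in G4D sham and 10.61, 10.44, 10.66 and 10.49 in wild-type sham. Every TAC array lay above every sham array of its own genotype. The TAC change was 0.46 ± 0.09 in G4D, 1.38-fold (adjusted p = 0.000759), and 0.40 ± 0.09 in wild type, 1.32-fold (adjusted p = 0.0142), and the interaction was 0.07 ± 0.13 with an interval from -0.20 to 0.33. The genotypes differed by 0.28 ± 0.08 after TAC, where the groups did not overlap, and 0.21 ± 0.10 in sham, and neither passed the test (adjusted p = 0.0950 and 0.695). The wild-type call was lost on the deposited values (adjusted p = 0.999), with median centring (0.508) and with the actin difference as a covariate (0.159), and without wild-type sham replicate 2 or 4 (0.0597 at most).

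Nes was read differently by its tested probe sets. On 1449022_at it ran from 6.75 through 7.12 to 7.64 in G4D TAC and from 6.85 through 7.11 to 7.48 in wild-type TAC. It was 6.44, 6.12, 6.17, 6.39 and 6.20 in G4D sham and 6.23, 6.49, 6.39 and 6.06 in wild-type sham, so TAC and sham arrays did not overlap in either genotype. TAC over sham was 0.92 ± 0.15 in G4D, 1.89-fold (adjusted p = 0.000203), and 0.83 ± 0.16 in wild type, 1.78-fold (adjusted p = 0.00382; 0.303 on the deposited values). Between genotypes the difference was 0.06 ± 0.14 after TAC and -0.03 ± 0.17 in sham (adjusted p = 0.963 and 0.989). The brighter 1418289_at gave -0.12 ± 0.16 in G4D, with an interval from -0.44 to 0.21, and -0.12 ± 0.17 in wild type, from -0.47 to 0.22, and all its groups overlapped. The third, 1453997_a_at, had means from 2.19 (G4D sham) to 3.07 (wild-type sham) and was below the filter.

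**Figure D3:**
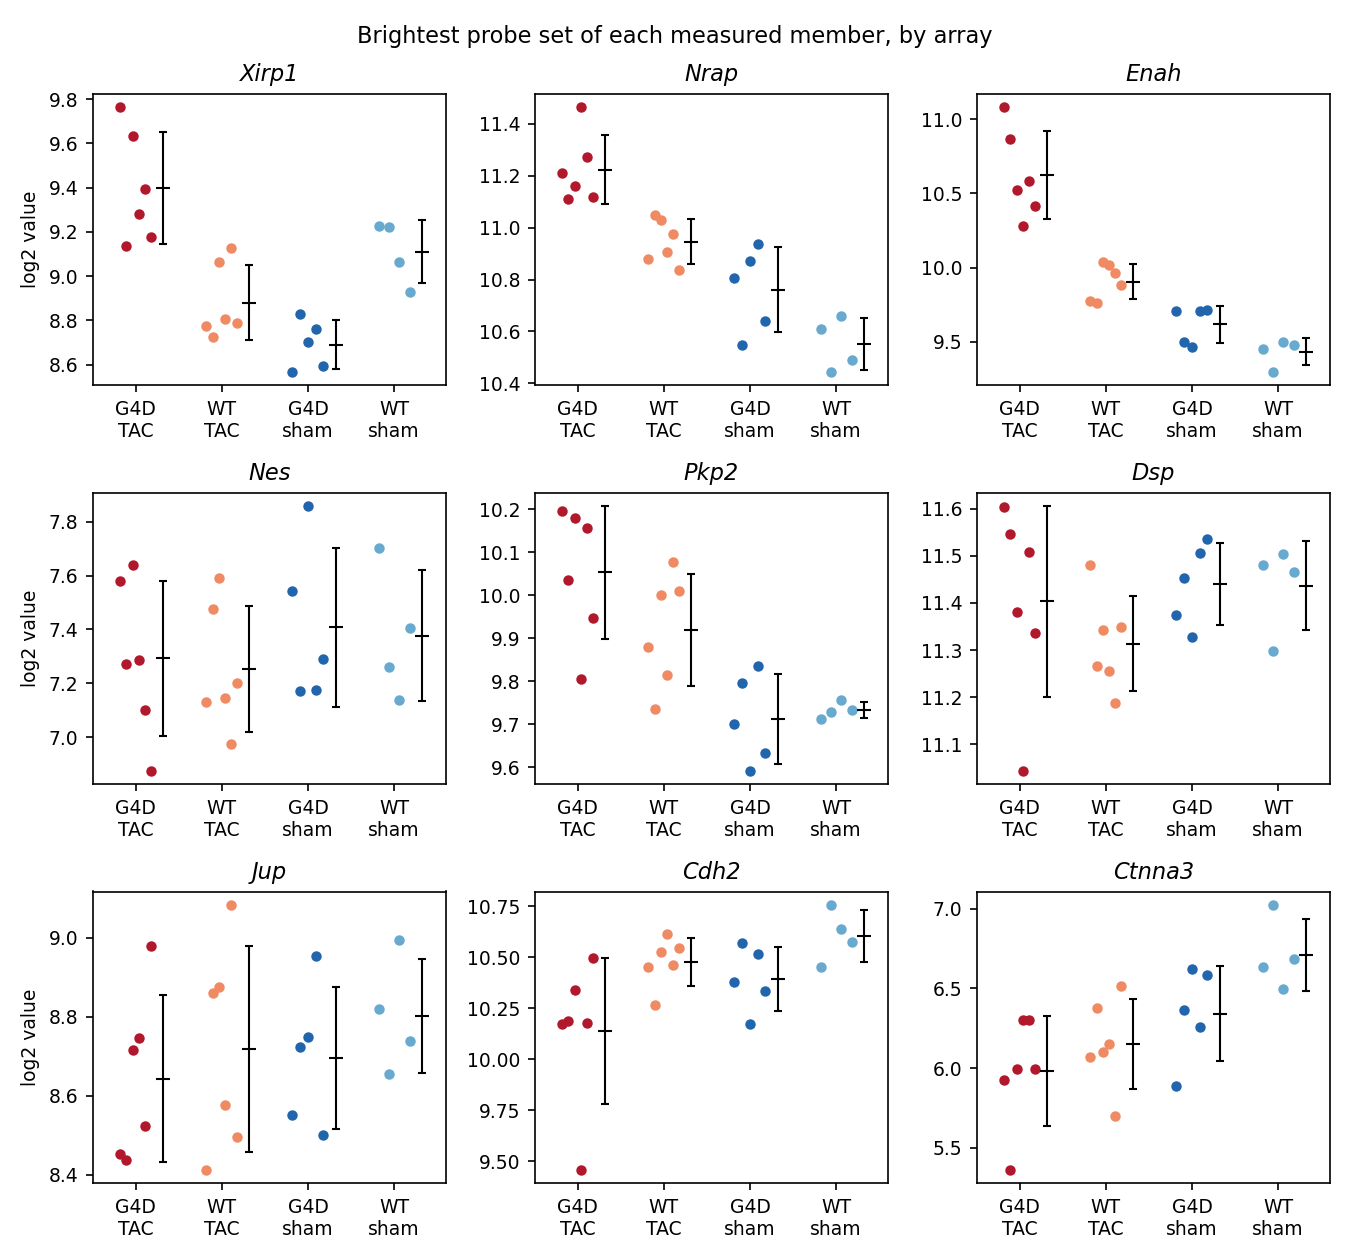
Log2 level by array of the brightest probe set of each of the 9 measured genes in the 4 groups, with mean and SD beside the points. Enah and Nrap stand highest in G4D TAC and lowest in wild-type sham, Xirp1 is lowest in G4D sham, and Dsp and Jup overlap across the 4 groups.

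Among the desmosomal genes, Pkp2 was the only member with a call. On 1449799_s_at it ran from 9.81 through 10.10 to 10.20 in G4D TAC and from 9.74 through 9.94 to 10.08 in wild-type TAC. It was 9.70, 9.80, 9.59, 9.84 and 9.63 in G4D sham and 9.71, 9.73, 9.76 and 9.73 in wild-type sham. The G4D groups overlapped in 1 TAC array. With TAC it rose by 0.34 ± 0.09 in G4D, 1.27-fold (adjusted p = 0.00760), and stood at 0.19 ± 0.09 in wild type (adjusted p = 0.310), and the interaction was 0.15 ± 0.12 (adjusted p = 0.856). Its other tested probe sets gave 0.16 ± 0.10 (1429183_at) and 0.00 ± 0.13 (1460511_at) in G4D, neither past the threshold, and the call of 1449799_s_at was lost with the actin difference as a covariate (adjusted p = 0.0769). The last, 1420259_at, had means from 3.12 (G4D sham) to 3.73 (wild-type sham) and was below the filter.

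Dsp and Jup gave no call in any of the 5 comparisons as fitted without covariates. Dsp on 1435494_s_at averaged 11.40 ± 0.20 (SD, n = 6) in G4D TAC, 11.31 ± 0.10 (SD, n = 6) in wild-type TAC, 11.44 ± 0.09 (SD, n = 5) in G4D sham and 11.44 ± 0.09 (SD, n = 4) in wild-type sham. Its TAC change had a 95% interval from -0.23 to 0.15 in G4D and from -0.33 to 0.08 in wild type. Another bright Dsp probe set, 1435493_at, gave intervals from -0.24 to 0.17 and from -0.20 to 0.23, whereas 1427610_at, which varied more, left a range from -1.02 to 0.12 in G4D; with the actin difference as a covariate its change became -1.09 and passed the threshold (adjusted p = 0.0224). Jup averaged 8.64 ± 0.21 (SD, n = 6) in G4D TAC, 8.72 ± 0.26 (SD, n = 6) in wild-type TAC, 8.70 ± 0.18 (SD, n = 5) in G4D sham and 8.80 ± 0.15 (SD, n = 4) in wild-type sham, and its TAC change lay between -0.32 and 0.21 in G4D and between -0.37 and 0.20 in wild type. Changes as large as that of Enah on 1424800_at in G4D, 1.01, lie outside the Jup intervals and those of the bright pair of Dsp probe sets.

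None of the probe sets of the adherens junction members Cdh2 and Ctnna3 passed limma's test in any comparison. Cdh2 on 1418815_at ran from 9.46 through 10.18 to 10.50 in G4D TAC and from 10.27 through 10.49 to 10.61 in wild-type TAC. It was 10.38, 10.57, 10.17, 10.52 and 10.33 in G4D sham and 10.45, 10.76, 10.64 and 10.57 in wild-type sham. A lone G4D TAC array, replicate 4, stood well below the others. After TAC it differed between G4D and wild type by -0.34 ± 0.13 (adjusted p = 0.246), and -0.20 without that array, while the other Cdh2 probe set, 1449244_at, gave 0.05 ± 0.08. TAC over sham on 1449244_at lay between -0.21 and 0.16 in G4D and between -0.31 and 0.08 in wild type.

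Ctnna3 on 1441193_at ran from 5.36 through 5.997 to 6.30 in G4D TAC and from 5.70 through 6.13 to 6.51 in wild-type TAC. It was 5.89, 6.37, 6.62, 6.26 and 6.58 in G4D sham and 6.63, 7.02, 6.50 and 6.68 in wild-type sham. The wild-type groups barely overlapped, with the highest TAC array, 6.51, just above the lowest sham array, 6.50. In G4D the TAC change was -0.36 ± 0.17 (adjusted p = 0.156) and in wild type -0.56 ± 0.18 (adjusted p = 0.0890), and the dimmer 1441560_at gave -0.19 ± 0.14 in G4D and -0.11 ± 0.15 in wild type. Without G4D TAC replicate 2 the wild-type change, still -0.56, passed the threshold (adjusted p = 0.0492).

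Other measures moved with TAC beside these results, and their part in them was not tested. The difference between the 3' and 5' actin control probe sets, a sign of how intact and how fully copied the RNA was, ran from 0.193 to 0.379 in G4D TAC and 0.113 to 0.408 in wild-type TAC, against 0.385 to 0.628 in G4D sham and 0.437 to 0.667 in wild-type sham. TAC and sham arrays did not overlap in it within a genotype. The same difference for Gapdh ran from -0.315 to -0.0107 in G4D TAC and -0.303 to -0.0643 in wild-type TAC, against -0.418 to -0.226 in G4D sham and -0.326 to 0.111 in wild-type sham, and overlapped between TAC and sham in both genotypes. With the actin difference as a covariate, 7 of the 19 called results of the disc genes lost the call and 0 changed sign. Of 10 fibroblast markers, 7 rose with TAC in G4D (median 1.23) and 6 in wild type (median 1.09), among them Postn at 3.42 ± 0.29 in G4D, and 1 was higher in G4D after TAC. Their summed log2 level was 13.5 to 14.5 in G4D TAC, 13.3 to 14.1 in wild-type TAC, 12.7 to 13.2 in G4D sham and 12.7 to 12.8 in wild-type sham. Some wild-type fibroblast calls were lost on the deposited values (adjusted p = 0.0716 and 0.341), and a G4D call with no level filter (0.0694). Of 10 macrophage markers 10 rose in G4D and 8 in wild type, with a summed log2 level of 11.6 to 12.2 in G4D TAC, 11.6 to 12.5 in wild-type TAC, 11.1 to 11.3 in G4D sham and 11.2 to 11.3 in wild-type sham. The wild-type macrophage calls were all lost on the deposited values (adjusted p = 0.114 to 0.999). Some of the G4D ones were lost with the actin covariate (adjusted p = 0.0630 to 0.103) or with no level filter (0.0656 and 0.0826). Of 10 cell division markers 6 were tested, but 5 of them had a sham group mean below the filter's floor and are not counted. Ccna2, above the floor in every group, rose by 1.66 ± 0.24 with TAC in G4D and 1.94 ± 0.26 in wild type.

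Markers of endothelium, a known site of Nes expression, rose for 2 of 10 with TAC in G4D and 3 of 10 in wild type, and 0 of 10 differed between the genotypes after TAC. Their summed log2 level was 11.7 to 12.1 in G4D TAC, 11.8 to 12.2 in wild-type TAC, 11.5 to 11.8 in G4D sham and 11.6 to 11.8 in wild-type sham. The wild-type endothelial calls were all lost on the deposited values (adjusted p = 0.463 to 0.999). Of the 6 tested nerve and glial markers 5 were above the floor in every group, and 0 of these were called in either genotype's TAC comparison. Of 9 smooth muscle and pericyte markers 1 rose (Cspg4, by 1.09 ± 0.13) and 1 fell with TAC in G4D, and 2 were higher in G4D after TAC, Acta2 by 0.81 ± 0.20 and Cspg4 by 0.66 ± 0.13. The Acta2 call was lost on the deposited values, with no level filter, the block or the actin covariate (adjusted p = 0.0612 to 0.0798), and that of Cspg4 on the deposited values (0.106). The marker that fell in G4D lost that call with median centring (adjusted p = 0.307) and on the deposited values (0.917). In sham hearts the Acta2 difference was 0.84 ± 0.23, which did not pass the test (adjusted p = 0.337). Of 4 tested fast skeletal muscle markers 1 rose and 2 fell with TAC in G4D and 1 rose in wild type, that 1 being Mybpc2, at 2.19 ± 0.25 in G4D and 2.33 ± 0.27 in wild type. Their summed log2 level was 9.12 to 9.55 in G4D TAC, 8.93 to 9.53 in wild-type TAC, 8.17 to 8.48 in G4D sham and 7.80 to 8.47 in wild-type sham. It separated TAC from sham in both genotypes. The sum adds levels before the log, so it follows the brightest marker most, Mybpc2 (mean 7.86, next Tnni2 at 6.25). The median TAC change of the 4 markers was -0.40 in G4D and 0.04 in wild type. The 2 that fell in G4D lost the call with median centring, the actin covariate or the deposited values (adjusted p = 0.0533 to 0.700). Cardiomyocyte markers gave 1 call in 10, Tnni3 lower by TAC in G4D (-0.21 ± 0.07, adjusted p = 0.0446), a call lost under all 5 alternatives run for these lists (adjusted p = 0.0667 to 0.939). In RNA from whole samples, fewer cells of a type and less RNA per cell cannot be told apart. Of 7 tested atrial markers 6 were above the floor in every group; of these 1 rose and 3 fell with TAC in G4D and 1 rose in wild type, and 1 was lower in G4D after TAC. The gene that rose in both genotypes was Nppa, the atrial natriuretic peptide precursor, at 1.69 ± 0.35 in G4D and 1.66 ± 0.37 in wild type. Both calls were lost with the actin covariate (adjusted p = 0.0521 and 0.155), and the wild-type call also on the deposited values (0.0926) and with the block (0.0508). Kcnj3, a potassium channel of atrial muscle, fell by 1.58 ± 0.25 with TAC in G4D and was lower in G4D after TAC at -1.07 ± 0.24 (adjusted p = 0.0183; 0.0584 with median centring and 0.249 on the deposited values). Another of the 3 that fell in G4D lost its call on the deposited values (adjusted p = 0.0519) and with the actin covariate (0.0544). The median TAC change of all 7 atrial markers, with the 1 that was below the floor in a group, was -1.10 in G4D and -0.40 in wild type. Their sum also adds levels before the log, and Nppa was the brightest, with a mean of 11.4 against 7.99 for Myl4, the next. The summed atrial level was 11.8 to 12.9 in G4D TAC, 11.8 to 12.4 in wild-type TAC, 10.7 to 14.3 in G4D sham and 10.5 to 11.2 in wild-type sham. TAC and sham overlapped through 1 array, G4D sham replicate 5, at 14.3 against a median of 10.9 in its group. How far that array bears on the falls of atrial markers in G4D was not tested. Without that array no call of the disc genes in TAC over sham in G4D was lost, and the Xirp1 interaction was 0.91 (adjusted p = 0.0891).

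The related gene lists show where the disc genes stood among their partners. Of 13 tested Ena/VASP relatives and actin partners, 8 rose and 0 fell with TAC in G4D (median 0.43) and 6 rose in wild type (median 0.30). Flnc, the muscle filamin that also binds Xin proteins, averaged 9.92 ± 0.21 (SD, n = 6) in G4D TAC, 9.38 ± 0.14 (SD, n = 6) in wild-type TAC, 8.998 ± 0.073 (SD, n = 5) in G4D sham and 8.995 ± 0.083 (SD, n = 4) in wild-type sham. It rose by 0.92 ± 0.10 with TAC in G4D (adjusted p = 1.68e-06) and was the list's only gene higher in G4D after TAC, by 0.54 ± 0.09 (adjusted p = 0.00245; 0.211 on the deposited values). Actn1 and Actn4, the non-muscle alpha-actinins, rose with TAC in G4D by 0.82 ± 0.14 and 0.57 ± 0.12, and in wild type by 0.76 ± 0.15 and 0.46 ± 0.12 (adjusted p = 0.00495 and 0.0347). The other Actn1 probe sets stood at 0.46 ± 0.18 and 0.10 ± 0.14 in G4D (adjusted p = 0.0767 and 0.688) and at 0.52 ± 0.19 and -0.14 ± 0.15 in wild type (adjusted p = 0.134 and 0.744), and neither passed the test. The wild-type count was 0 on the deposited values and with the actin covariate, and 1 with median centring.

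Of the other desmosome genes, 6 were tested, and Dsg2, a cadherin of the heart's desmosome, fell. It averaged 8.14 ± 0.08 (SD, n = 6) in G4D TAC, 8.92 ± 0.19 (SD, n = 6) in wild-type TAC, 9.02 ± 0.35 (SD, n = 5) in G4D sham and 9.33 ± 0.10 (SD, n = 4) in wild-type sham. All 6 G4D TAC arrays, at 8.06 to 8.25, lay below every array of the other groups, the lowest of which was 8.60. Its TAC change was -0.88 ± 0.13 in G4D (adjusted p = 5.18e-05) and -0.41 ± 0.13 in wild type (adjusted p = 0.0867), G4D over wild type after TAC was -0.78 ± 0.12 (adjusted p = 0.00104), and the interaction was -0.47 ± 0.18 (adjusted p = 0.551). On the deposited values the G4D change was -0.45 (adjusted p = 0.216) and that after TAC -0.61 (adjusted p = 0.537). Of its other 4 tested probe sets, 3 also fell with TAC in G4D, at -0.84 to -0.42, and 1 did not pass the test (-0.05 ± 0.21).

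Among 12 adherens junction and area composita genes, Vcl (vinculin), which anchors actin, rose by 0.28 ± 0.08 and Nectin2, a cell adhesion molecule, fell by 0.34 ± 0.10 with TAC in G4D (adjusted p = 0.0193 and 0.0248), and 0 passed in wild type. On the deposited values Nectin2 stood at 0.01. The Vcl call was lost with the actin covariate (adjusted p = 0.134), and that of Nectin2 also with median centring (0.335) and the block (0.0626). The other Vcl probe set stood at -0.03 ± 0.27 with TAC in G4D (adjusted p = 0.962), and the other of Nectin2 at -0.51 ± 0.14 (adjusted p = 0.0143). After TAC, Lmo7, an actin-binding protein of the junction chosen after its values were seen, differed in G4D by -0.45 ± 0.11 (adjusted p = 0.0367), a call lost with the block, the actin covariate, median centring, no level filter or the deposited values (adjusted p = 0.0745 to 0.977). The other Lmo7 probe set stood at -0.44 ± 0.11 in G4D over wild type after TAC (adjusted p = 0.0356). None of 5 tested gap junction and channel genes was called by limma in any of the 5 comparisons. An unadjusted p under 0.05 was seen for 1 gene with TAC in G4D, 3 with TAC in wild type and 1 for the genotypes after TAC. Over all 27022 tested probe sets these counts were 8273, 4451 and 3022. Gja1, the main connexin of the ventricle, stood at 0.05 ± 0.12 with TAC in G4D and 0.02 ± 0.13 in wild type, and Gjc1 at 0.38 ± 0.15 and 0.40 ± 0.16.

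Of 11 tested myofibril partners of Nrap and Xin proteins, 3 rose and 2 fell with TAC in G4D, and 1 fell in wild type. Des (desmin), the filament that Dsp holds, averaged 11.68 ± 0.20 (SD, n = 6) in G4D TAC, 11.02 ± 0.16 (SD, n = 6) in wild-type TAC, 10.95 ± 0.09 (SD, n = 5) in G4D sham and 11.02 ± 0.11 (SD, n = 4) in wild-type sham. Only the G4D TAC arrays stood apart, from 11.33 upward, with 11.20 the highest in the other groups. Its TAC change was 0.73 ± 0.10 in G4D (adjusted p = 2.72e-05), and it was higher in G4D after TAC by 0.67 ± 0.09 (adjusted p = 0.000467; 0.0955 with median centring and 0.139 on the deposited values), with an interaction of 0.73 ± 0.14 (adjusted p = 0.1003). The dimmer Des probe set stood at 0.41 ± 0.19 with TAC in G4D and 0.42 ± 0.18 after TAC, and neither passed the test (adjusted p = 0.143 and 0.346). Klhl40, which stabilises thin-filament proteins, rose by 0.61 ± 0.20 with TAC in G4D, a call lost with no level filter (adjusted p = 0.0701), and Nebl (nebulette), a thin-filament protein of the heart, fell by 0.48 ± 0.09, against -0.06 on the deposited values. It lost the call there and with median centring (adjusted p = 0.899 and 0.346). The other Nebl probe sets stood at -1.06 ± 0.34 and -0.58 ± 0.19 with TAC in G4D (adjusted p = 0.0324 and 0.0383). Klhl41, which binds Nrap and was also picked with its values known, was higher in G4D after TAC by 0.50 ± 0.13 (adjusted p = 0.0387), a call lost with the actin covariate, median centring, no level filter or the deposited values (adjusted p = 0.0831 to 0.475).

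Of 9 tested intermediate filament and linker genes, 8 were above the filter's floor in every group; of these 4 rose with TAC in G4D and 1 in wild type. Of the 8, 0 were called between the genotypes after TAC or in the interaction by limma. An unadjusted p under 0.05 was seen for 3 and 2 of them, beside 3022 and 2005 of all 27022 tested probe sets. Vim (vimentin), a filament protein of fibroblasts and endothelium, rose by 0.77 ± 0.15 in G4D and by 1.14 ± 0.16 in wild type (adjusted p = 0.00125 and 0.000252; 0.116 in wild type on the deposited values), and its other probe sets were called too. Synm (synemin), which co-assembles with desmin, rose by 0.76 ± 0.24 in G4D (adjusted p = 0.0309; 0.0635 with no level filter and 0.0962 with the actin covariate), while its other probe set stood at 0.28 ± 0.16 (adjusted p = 0.260). The ninth gene, Krt18, a keratin, stood at 0.89 ± 0.22 in G4D; its mean was 4.98 in G4D TAC, 4.29 in wild-type TAC, 4.09 in G4D sham and 3.97 in wild-type sham, so it passed the filter through G4D TAC alone and is not counted.

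**Figure D4:**
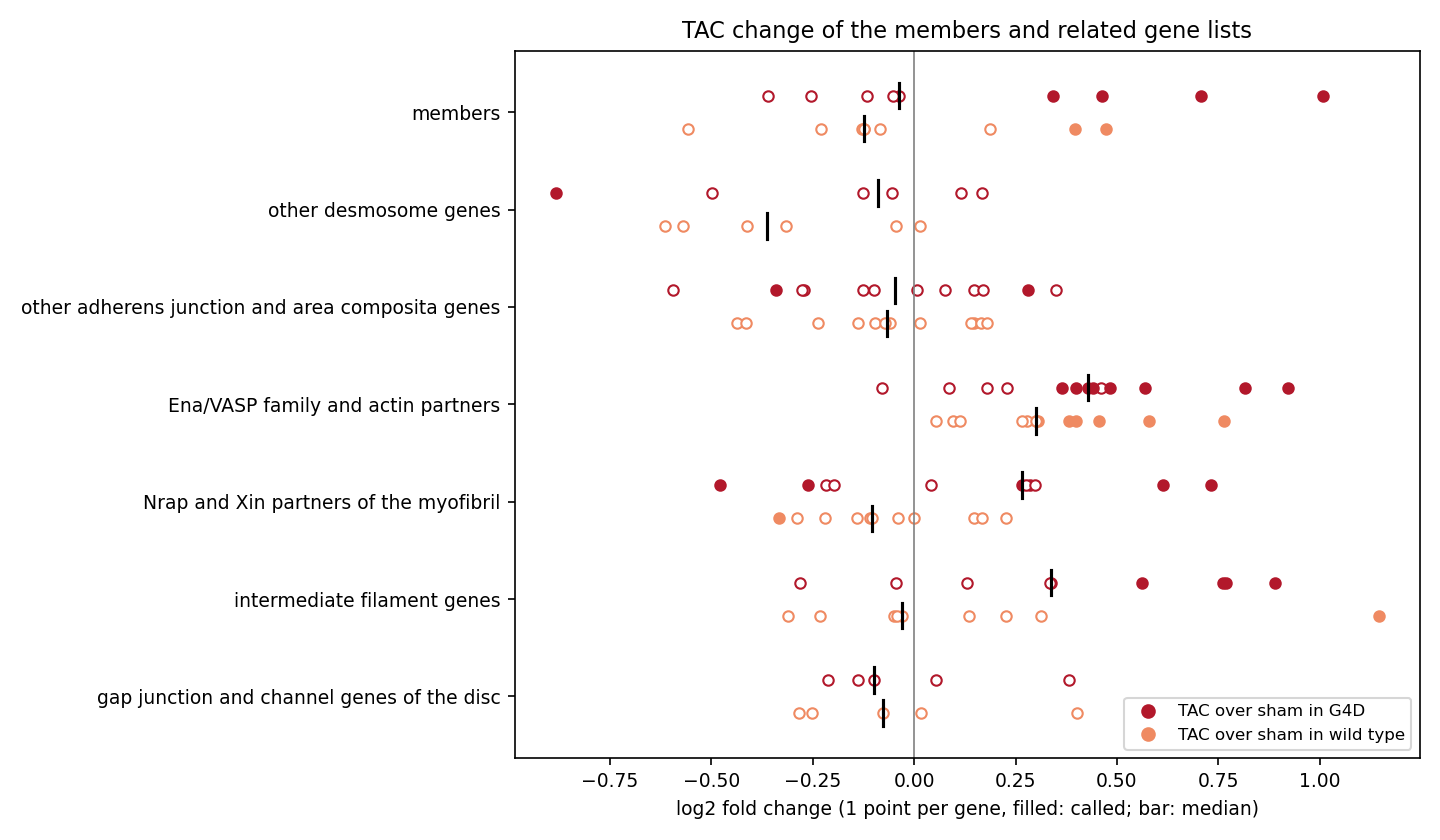
Log2 fold change of TAC over sham for each tested gene of the disc genes and the related lists, read by its brightest probe set, with filled points called by limma and a bar at the median. In the Ena/VASP and actin list 8 of 13 genes are filled in G4D and 6 of 13 in wild type, and Dsg2 is the filled point at -0.88 in the desmosome row.

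The genes whose profile over the 21 arrays was closest to that of Enah on 1424800_at, by the root mean square difference of values centred on their own mean, were Akap2 (0.172), Myh10 (0.176) and Pfkp (0.184) among 13270 genes, beside a spread of Enah itself of 0.487. Group means of Akap2 were 9.93 in G4D TAC, 9.38 in wild-type TAC, 9.07 in G4D sham and 9.01 in wild-type sham, the same order as for Enah. For Xirp1, with a spread of 0.318, the closest were Pogk (0.188), Ckb (0.193) and Cnn2 (0.199). For Ctnna3, with a spread of 0.369, they were Dlc1 (0.223), Setd1b (0.225) and Mitf (0.229), so the likeness was loose.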

How the data were processed

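RNA was measured on 21 single-colour Affymetrix oligonucleotide arrays, grouped by the genotype and operation in the sample titles. The authors deposited 1 log2 value per probe set and array, made with PLIER, a probe-level summary, per the submitters' processing notes; its version, background correction and normalization are not given in the sources used here. Their range (-13.5 to 15.1) and the spike-in levels (bioB 6.38, cre 11.6) point to a log2 scale. No batch or scan date is given. The 64 control probe sets of 45101 were dropped, and the rest carried 1 symbol (34945), several (932) or none (9160). Symbols came from the platform annotation, updated through RefSeq gene IDs.

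The values were quantile normalized, and the 27022 probe sets with a mean at or above the 40th percentile (4.35) were tested. Group means were fitted with limma 3.58.1 under R 4.3.3 in 1 fit of all arrays with no covariate (17 residual degrees of freedom), with two-sided moderated tests and Benjamini-Hochberg adjustment over all tested probe sets. Fits were tested on simulated data with planted log2 changes. Planted changes of 1 were called in 80% to 87% of cases in the comparisons between groups and in 58% in the interaction. Smaller planted changes were called in 30% to 40% and in 12%. At most 9.02% of the calls were false. A difference that did not pass the test can thus be real. Intervals are 95%. Each gene of a list is read by its brightest tested probe set. The disc genes and all lists were chosen with earlier results of these data known, so their counts are descriptions. The rule for names was: every disc gene and Gata4, up to 3 called genes of each related list with the largest TAC change in G4D (or 1 or 2 as values), up to 2 of each cell type list, and the 3 nearest profiles of the 3 disc genes whose group means span most; Lmo7 and Klhl41 fall outside it and were chosen after their values were seen. Promoter windows are RefSeq sequence; 7 of the 10 disc genes had at least 1, 9 windows in all. Alternatives were the values as deposited, median centring, no level filter, a filter at the 60th percentile, 1 probe set per gene, the replicate number as a block, the actin 3' minus 5' difference as a covariate, and each array left out. Figures were drawn with matplotlib 3.10.9.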

Additional observations from a re-analysis of the deposited data

Results flagged for a closer look

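The TAC effect on Xirp1 differed between the genotypes by 0.94 ± 0.17 (limma, adjusted p = 0.0499), with G4D up and wild type not past the threshold. Cdh2 on 1418815_at read 9.46 in G4D TAC replicate 4, far below the other 5 arrays of its group at 10.17 to 10.50. The dimmer Gata4 probe set, 1418864_at, had a low array in 3 groups: 5.24 in G4D TAC replicate 3 (others 6.22 to 6.80), 5.90 in G4D sham replicate 3 (others 6.47 to 6.63) and 5.68 in wild-type sham replicate 2 (others 6.66 to 6.86). In all, 4 of 88 groups of values had such a far array by Dixon's criterion, and chance gives about 1 in 20.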

How the results depend on the processing

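None of the 19 called results of the disc genes changed sign under any alternative. Calls lost numbered 9 on the values as deposited, 7 with the actin covariate, 5 with median centring, 3 with no level filter, 2 with the replicate block, 1 of 9 with 1 probe set per gene and 0 of 17 with the filter at the 60th percentile. Calls gained by uncalled results numbered 1 with the actin covariate (Dsp 1427610_at, TAC in G4D), 1 with the filter at the 60th percentile (Enah 1424801_at, TAC in wild type) and 4 with an array left out (that Enah result without G4D TAC replicate 1 or 6, Ctnna3 1441193_at with TAC in wild type without G4D TAC replicate 2, and Enah 1442223_at after TAC without wild-type TAC replicate 5). Over all tested probe sets, calls of G4D over wild type in sham, 11, were 6 as deposited, 2 with median centring, 2 with no filter, 7 with 1 probe set per gene, 1 with the block and 7 with the actin covariate, and 1 to 39 with an array left out (39 without G4D sham replicate 2). Calls of TAC over sham in wild type, 1289, were 115 as deposited, 607 with median centring, 596 with the block, 474 with the actin covariate and 738 to 1559 with an array left out (738 without wild-type sham replicate 1); of the disc probe sets, 4, they left 0 as deposited, 2 with median centring, 2 with 1 probe set per gene, 1 with the actin covariate and 2 to 5 with an array left out (2 without wild-type sham replicate 2 or 4). TAC over sham in G4D, 4752, gave 2988 with 1 probe set per gene, where 4 disc genes were called, 3024 with the actin covariate, and 3757 to 5434 with an array left out, always with 9 disc probe sets. G4D over wild type after TAC, 576, gave 91 as deposited, 265 with median centring, 345 with the block and 310 to 832 with an array left out (310 without G4D TAC replicate 1); the 5 disc probe sets became 1, 3, and 2 with 1 probe set per gene, and 4 to 6 with an array left out. The interaction, 8, gave 1 with no filter, 2 with 1 probe set per gene, 1 with the block and 1 to 29 with an array left out (29 without G4D TAC replicate 4). Of disc probe sets, 1 (Xirp1) in the interaction became 0 as deposited, with median centring, no filter, 1 probe set per gene, the block or the actin covariate, and 0 to 1 with an array left out, kept without wild-type TAC replicate 5 or G4D TAC replicate 2 or 4. Without single arrays, Nrap lost its wild-type call without wild-type sham replicate 2 or 4 (0.36 and 0.38), Enah 1424800_at its own without any of the 4 wild-type sham arrays or wild-type TAC replicate 3, 4 or 5 (0.43 to 0.49), and Enah 1455375_at that after TAC without wild-type TAC replicate 2, 3 or 4 or G4D TAC replicate 1, 3 or 5 (0.51 to 0.67). Fewer arrays or genes tested account for part of this by construction, and otherwise the cause was not tested.

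Signs changed for values that had not passed the test: of 81 such results, 25 on the deposited values, 14 with median centring, 4 with the block, 4 with the actin covariate and 28 with an array left out. Those of the brightest probe sets, Enah and other called probe sets follow. In G4D over wild type in sham they became, as deposited and with median centring, -0.29 and -0.13 for Nes 1418289_at, -0.17 and -0.018 for Enah 1424800_at and -0.38 and -0.22 for Dsp 1435494_s_at, and as deposited -0.14 for Nrap and -0.084 for Enah 1424801_at; Dsp also became -0.0031 with the block and -0.025 with the actin covariate. In TAC over sham in G4D they became 0.29 and 0.084 for Nes 1418289_at, 0.38 and 0.18 for Jup, 0.27 and 0.069 for Dsp and, as deposited, 0.15 for Cdh2 1418815_at. Jup after TAC became 0.11 as deposited, the interaction of Cdh2 0.42 and 0.14, and that of Nes 1418289_at -0.050 with the block. With an array left out, values ran in sham from -0.082 to 0.14 (Nes 1418289_at), -0.11 to 0.038 (Nes 1449022_at), -0.044 to 0.030 (Dsp) and -0.052 to 0.0096 (Pkp2); with TAC in wild type from -0.17 to 0.071 (Enah 1455375_at) and in G4D from -0.12 to 0.012 (Jup) and -0.077 to 0.036 (Dsp); after TAC from -0.031 to 0.12 (Nes 1418289_at) and -0.031 to 0.15 (Nes 1449022_at); and for the interaction from -0.10 to 0.12 (Nes 1418289_at), -0.0017 to 0.18 (Nes 1449022_at), -0.20 to 0.011 (Cdh2) and -0.036 to 0.10 (Jup). Whether replicate numbers of the titles pair the arrays was not settled. The 28 same-numbered pairs correlated at -0.37 to 0.38, 9 of them over 0.1, but differently numbered pairs were not compared. Besides the calls given above, the replicate block took the wild-type call of Enah 1424800_at (adjusted p = 0.0832).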
